A study of Mus musculus with 76 samples.

Results

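The tumors described here were 4T1-CAT and parental 4T1 tumors that had all been given CAT-ABP + alum. They were chosen by cell line and treatment as the sample labels give them, without use of any measured value, and comprised 5 4T1-CAT tumors and 6 4T1 tumors, 11 of the 38 tumors of the series and 22 of its 76 libraries. 4T1 is a mammary carcinoma line from Balb/c mice. 4T1-CAT cells are 4T1 cells that carry a lentiviral cassette for human catalase and GFP under a doxycycline (DOX)-inducible promoter, were selected with puromycin and sorted for GFP. CAT-ABP is a recombinant catalase joined to a peptide that binds alum, so that the enzyme stays where it is injected. Per the labels, Balb/c mice received 500000 cells s.c. in the flank on day 0, 20 µg CAT-ABP with 100 µg alum i.t. on day 6, and their tumors were harvested on day 8. The study's text places the treatment and the harvest later than the labels do. Mice with 4T1-CAT tumors ate a DOX diet from day 4 per the labels, a start that the study's text also places later. The labels do not give this diet for mice with parental tumors. Ages of the animals are not in the labels. Beside the main pair of groups stood 5 4T1-CAT and 5 4T1 tumors given alum alone, and 6 alum-treated tumors of 4T1-control, a line with the same kind of cassette for GFP without catalase, on the same DOX diet.

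The groups thus differed in catalase made inside the tumor cells, with the injected enzyme present in both. Lentiviral transduction, selection, sorting, GFP and DOX also separated them. So did sequencing: all 4T1-CAT and 4T1-control libraries lay in one set of sequencing pools, as their index tags show, and all 4T1 CAT-ABP + alum libraries in another. Within the main comparison, the pool, the transduction, the diet and the enzyme cannot be told apart. The 4T1 tumors given alum were split between the sets, with 3 in the pools of 4T1-CAT and 2 in the pools of the 4T1 CAT-ABP + alum tumors. They gave a difference between pools with line and treatment fixed, which was called in 1 of 12905 genes (0.00775%) and had an unadjusted p under 0.05 in 830 (6.43%). With 3 tumors against 2, the median half-width of its 95% intervals was 0.58 on the log2 scale.

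Catalase splits hydrogen peroxide into water and oxygen and normally resides in peroxisomes. The cassette lacked the peroxisomal signal, so its enzyme acts in the cytoplasm. Peroxide is a substrate of peroxiredoxins and glutathione peroxidases, it activates the transcription factor NRF2, and oxygen and peroxide both bear on the hypoxia-inducible factors (HIFs). DOX, the inducer, also binds the ribosomes of mitochondria. 4T1 cells are epithelial carcinoma cells, held together by claudins, cadherin and EPCAM and carrying keratins, and the tumors also hold fibroblasts, vessels and myeloid cells of the host.

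4T1-CAT tumors held 4505755 to 8709773 counts (median 5339033) and 4T1 tumors 837403 to 8543636 (median 4980961). The log2 totals differed by 0.45 (two-sided exact permutation test, p = 0.613). The shallowest tumor was 4T1 replicate 4, which also had the highest share of counts from mitochondrially encoded genes, 6.04% against 3.80% to 4.39% in the other 5 parental tumors and 3.44% to 4.94% in 4T1-CAT. The log2 CPM (CPM, counts scaled to equal library totals) of the 2 libraries of a tumor correlated with r between 0.812 and 0.955 across 11620 genes. These tumors expressed the keratins and cadherin of the line: *Krt8* averaged 830 ± 264 CPM (SD, n = 5) in the engineered tumors and 754 ± 151 (SD, n = 6) in the parental ones, and *Cdh1* 136 ± 41.0 and 126 ± 34.2 CPM.

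Few genes passed the test between engineered and parental tumors under CAT-ABP + alum. Of 13235 genes tested, 0 were higher and 2 were lower in 4T1-CAT at p-adj ≤ 0.05 (edgeR's quasi-likelihood test, p adjusted by Benjamini-Hochberg), which is 0.0151% of the genes tested. These were *Rab25*, a small GTPase that recycles membrane proteins in epithelial cells, and *Rhox5*, an X-linked homeobox gene of the reproductive homeobox cluster. DESeq2 also called 2 genes, both lower. At an unadjusted p under 0.05 there were 571 genes, 4.31% of those tested, with 216 higher (1.63%) and 355 lower (2.68%). The median log2 fold change over all genes was -0.02 and the median half-width of a gene's 95% interval was 0.40 on the log2 scale.

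Catalase itself was looked at first. The *Cat* row counts the mouse gene, and no row for the human transgene or GFP was analysed here, so the induction of the cassette was not measured. *Cat* stood at 34.6, 41.5, 37.7, 45.1 and 43.6 CPM in the 5 4T1-CAT tumors and between 16.7 and 51.7 CPM (median 37.2) in the 6 parental tumors. The groups overlapped, and the log2 fold change was 0.11 (95% interval -0.24 to 0.46, p-adj = 0.984, edgeR).

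*Rab25* was one of the genes called lower in 4T1-CAT. In the parental tumors its level was 16.04, 12.5, 12.2, 11.9, 11.6 and 15.6 CPM, from 10 to 99 counts per tumor. In 4T1-CAT it was 5.43, 4.23, 5.105, 4.48 and 6.70 CPM, from 20 to 39 counts. Every 4T1-CAT tumor lay below every parental tumor, as was so for 39 of the 13235 genes tested (0.295%). The means were 5.19 ± 0.97 (SD, n = 5) and 13.3 ± 2.0 CPM (SD, n = 6), the log2 fold change was -1.42 (SE 0.20, 95% interval -1.83 to -1.01, p-adj = 0.00829, edgeR), and the two-sided exact permutation test gave p = 0.00216, the smallest that 5 against 6 tumors allow. *Rab25* lies on chr3:88542029-88548300 on the minus strand (GRCm38) and overlaps no other annotated gene. It lost its call without 4T1-CAT replicate 1 or 4 (p-adj = 0.0610 and 0.0620, edgeR), at log2 fold changes of -1.43 and -1.35.

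The same gene was low in the engineered lines without CAT-ABP. With alum alone, *Rab25* was at 6.64, 4.201, 3.91, 5.83 and 0.45 CPM in 4T1-CAT and at 21.7, 8.64, 11.9, 16.4 and 13.01 CPM in 4T1, again without overlap (log2 fold change -1.53, 95% interval -2.26 to -0.80, p-adj = 0.141, edgeR, and p = 0.00794 in the exact permutation test, the smallest for 5 against 5). These tumors are not shared with the CAT-ABP comparison. Against the 3 parental alum tumors in its own pools the log2 fold change was -1.52 (95% interval -2.33 to -0.71), and the pools differed by -0.03 (95% interval -0.78 to 0.72) within the parental alum tumors. The 4T1-control tumors, which have GFP and DOX but no added catalase, held 3.12 to 7.49 CPM (median 6.22), all below the parental alum tumors (exact permutation p = 0.00216). Their total counts ran from 493044 to 4569427. Some of these levels rest on few counts of *Rab25*, with 3 in 4T1-control replicate 2 and 1 in 4T1-CAT alum replicate 5. 4T1-CAT and 4T1-control overlapped under alum (exact permutation p = 0.294). The share of all genes without overlap was counted for the CAT-ABP + alum comparison only. Between 4T1-CAT and 4T1 given alum, 5.01% of all genes tested were lower at an unadjusted p under 0.05. The test of whether the line difference in *Rab25* differed between CAT-ABP + alum and alum gave a difference of 0.14 (95% interval -0.69 to 0.96).

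*Rhox5* was rarer, and it also differed between the pools. It stood at 4.46, 5.36, 6.09, 10.7, 5.50 and 3.74 CPM in the parental tumors, from 9 to 47 counts. In 4T1-CAT it was at 0.56, 1.06, 0.67, 0.34 and 1.41 CPM, from 3 to 8 counts. All 5 engineered tumors lay below all 6 parental tumors (log2 fold change -2.83, SE 0.40, 95% interval -3.67 to -1.997, p-adj = 0.00829, edgeR, exact permutation p = 0.00216). *Rhox5* was thus another of the 39 genes (0.295%) without overlap in that direction. Its call was lost without 4T1-CAT replicate 1 or 4 as well (p-adj = 0.0650 and 0.0620, edgeR), at -2.74 and -2.57. Within parental tumors given alum, however, *Rhox5* also followed the pools: it was at 10.3 and 4.65 CPM in the pools of the 4T1 CAT-ABP + alum tumors and at 1.27, 1.43 and 2.95 CPM in those of 4T1-CAT, a log2 difference of -1.92 (95% interval -3.15 to -0.68, p-adj = 0.749, edgeR). With the pool as a term in a model over all 4T1-derived groups, the line difference in *Rhox5* was -0.92 (95% interval -2.74 to 0.90), against -1.36 (95% interval -2.36 to -0.36, p-adj = 0.898, edgeR) for *Rab25*. 4T1-CAT tumors given alum had 0 to 1.08 CPM. *Rhox5* lies on chrX:37804842-37808876 on the plus strand (GRCm38).

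**Figure D1:**
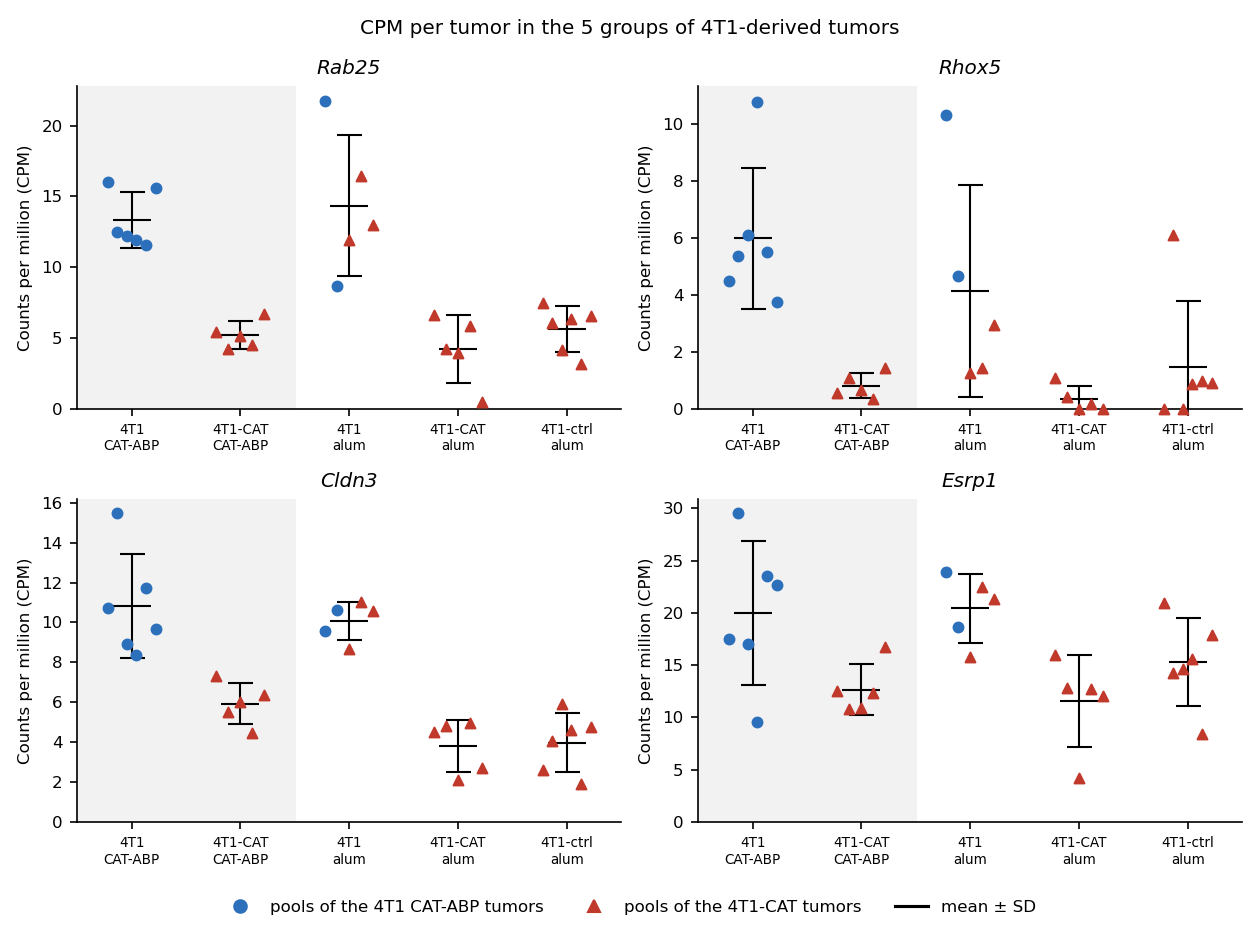
Levels of *Rab25*, *Rhox5*, *Cldn3* and *Esrp1* in CPM (vertical axes, from 0), 1 point per tumor, in 5 groups of 4T1-derived tumors, with the mean and SD as bars and the sequencing pools as point shapes; the shaded groups are the main comparison. *Rab25* and *Cldn3* were lower in every 4T1-CAT tumor than in every 4T1 tumor given CAT-ABP + alum, and in *Rhox5* the 3 parental alum tumors in the pools of 4T1-CAT lay at 1.27 to 2.95 CPM.

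*Rab25* belongs to a list of 18 epithelial markers, of which 16 were tested, 10 with a negative and 6 with a positive log2 fold change. Of these 16, 1 was called lower and 0 higher, and 7 had an unadjusted p under 0.05, all lower, a level at which 2.68% of all genes were lower. The median log2 fold change was -0.30 against -0.02 over all genes. After *Rab25* came *Cldn3*, a tight junction claudin, at 7.30, 5.50, 5.99, 4.48 and 6.35 CPM in 4T1-CAT and 8.36 to 15.5 CPM (median 10.2) in 4T1. These groups did not overlap either, as was so for 39 of the 13235 genes in that direction (0.295%). For *Cldn3* the log2 fold change was -0.94 (95% interval -1.36 to -0.52), which missed the threshold (p-adj = 0.391, edgeR, exact permutation p = 0.00216). *Cldn3* lies on chr5:134986214-134987472 on the plus strand (GRCm38) and overlaps the gene *Wbscr25*, so reads of the pair may not be separable.

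The other epithelial genes with an unadjusted p under 0.05 had p-adj of 0.591 or above. *Esrp1*, the splicing regulator of epithelial isoforms, had 10.8 to 16.8 CPM against 9.55 to 29.6 in 4T1, with a log2 fold change of -0.75 (95% interval -1.11 to -0.39, exact permutation p = 0.0628). *Ap1m2*, the epithelial subunit of the AP-1 clathrin adaptor, had a log2 fold change of -0.88 (95% interval -1.62 to -0.14), with 1.69 to 3.88 CPM against 0 to 7.35 CPM (exact permutation p = 0.823). The values of *St14*, the membrane protease matriptase, of the keratin *Krt7* and of *Epcam* were -0.41, -0.40 and -0.39. Other keratins and the cadherin had values of -0.11 for *Krt19*, 0.08 for *Krt8* (95% interval -0.27 to 0.42), 0.04 for *Krt18* (-0.26 to 0.34) and 0.05 for *Cdh1* (-0.29 to 0.40). The summed level of the whole list overlapped between the groups, at 2079 to 3842 CPM in 4T1-CAT and 1970 to 3459 CPM in 4T1.

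With alum alone the list had a median of -0.40, with 9 of 15 genes lower at an unadjusted p under 0.05 and 0 higher, where 5.01% of all genes tested were lower at that level. *Ap1m2* was at -1.78 there, *Cldn3* at -1.24, *Epcam* at -0.77, *St14* at -0.74 and *Esrp1* at -0.71 (log2 fold changes, p-adj above 0.05, edgeR), and DESeq2 called *Rab25*, *Cldn3* and *Epcam* among others. Against the parental alum tumors of the same pools the median was -0.48, and between the pools it was -0.20. *Cldn3* was also low in 4T1-control, at 1.92 to 5.91 CPM (from 2 to 21 counts) against 8.68 to 11.01 CPM in parental alum tumors (exact permutation p = 0.00216), and 4T1-CAT and 4T1-control overlapped (exact permutation p = 0.877). *Esrp1* and *Epcam* did not separate 4T1-control from parental alum tumors. For *Esrp1* the ranges were 8.39 to 20.97 CPM and 15.73 to 23.95 CPM, and for *Epcam* 150 to 446 CPM and 281 to 524 CPM. The model with the pool as a term had *Ap1m2* at -1.20, *Cldn3* at -1.02, *Esrp1* at -0.73, *Epcam* at 0.08 and the median of the list at -0.07, with no gene called. Between the pools of parental alum tumors *Cldn3* differed by 0.10 (95% interval -0.54 to 0.75), *Esrp1* by 0.01 (-0.54 to 0.55) and *Ap1m2* by 0.35 (-0.69 to 1.39).

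**Figure D2:**
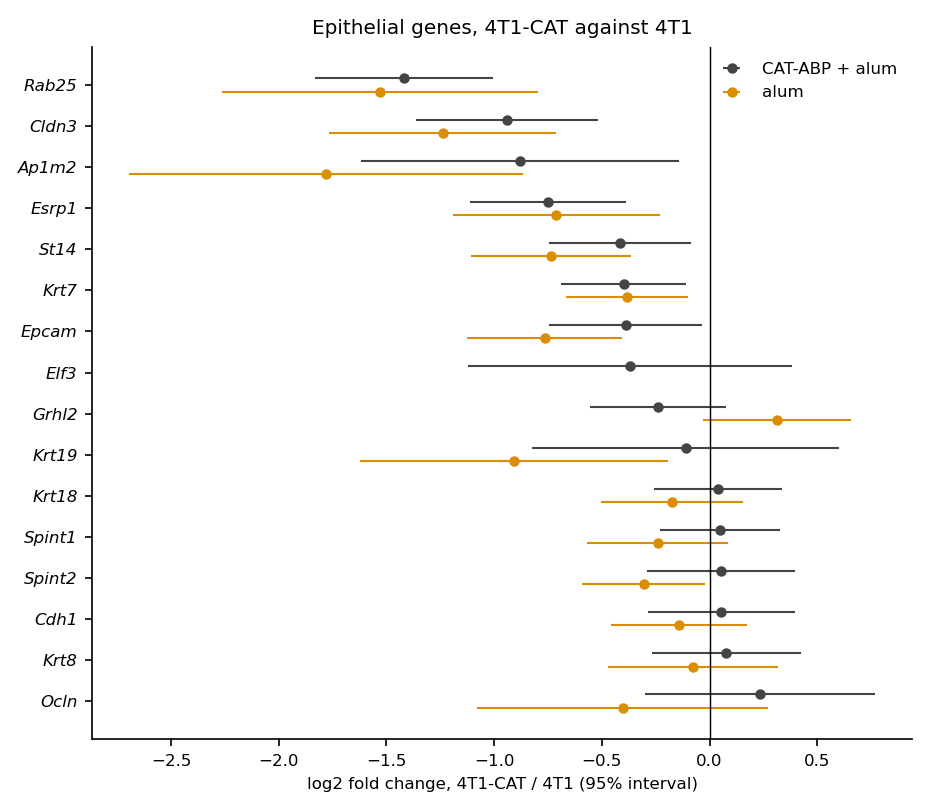
Log2 fold change of 4T1-CAT over 4T1 (horizontal axis) with its 95% interval for the 16 epithelial genes tested, under CAT-ABP + alum (dark) and under alum (orange). *Rab25*, *Cldn3*, *Ap1m2* and *Esrp1* stand lowest under CAT-ABP + alum, and *Cdh1*, *Krt8* and *Krt18* lie at 0.04 to 0.08.

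The start regions of 4 of these genes, chosen after their values were seen from the genes lower at an unadjusted p under 0.05, are printed to show the sequence at which they begin. Each line is the 250 bases before the RefSeq start on the gene's own strand (GRCm38.p6), in lower case. Capitals mark CACCTG or its reverse complement CAGGTG, an E-box read by SNAI and ZEB repressors, and AACCNGTT, the motif of the grainyhead-like factors. *Rab25* is at chr3:88548280-88548529 (minus strand), *Ap1m2* at chr9:21312334-21312583 (minus), *Epcam* at chr17:87635729-87635978 (plus) and *Cldn3* at chr5:134985964-134986213 (plus).
Rab25: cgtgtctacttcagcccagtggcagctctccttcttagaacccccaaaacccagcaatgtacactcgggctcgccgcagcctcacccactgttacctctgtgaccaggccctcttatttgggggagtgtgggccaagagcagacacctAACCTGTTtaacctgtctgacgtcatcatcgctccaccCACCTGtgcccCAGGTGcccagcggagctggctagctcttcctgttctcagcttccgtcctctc
Ap1m2: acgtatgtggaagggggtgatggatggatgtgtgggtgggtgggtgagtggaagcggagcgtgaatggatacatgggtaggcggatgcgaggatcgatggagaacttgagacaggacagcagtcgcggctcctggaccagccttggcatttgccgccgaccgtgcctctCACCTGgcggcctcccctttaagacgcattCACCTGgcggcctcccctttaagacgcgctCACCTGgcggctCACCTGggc
Epcam: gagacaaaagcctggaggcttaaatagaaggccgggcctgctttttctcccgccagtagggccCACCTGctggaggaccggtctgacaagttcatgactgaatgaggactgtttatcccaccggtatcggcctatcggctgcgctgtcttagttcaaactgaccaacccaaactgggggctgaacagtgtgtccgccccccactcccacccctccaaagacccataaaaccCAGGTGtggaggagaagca
Cldn3: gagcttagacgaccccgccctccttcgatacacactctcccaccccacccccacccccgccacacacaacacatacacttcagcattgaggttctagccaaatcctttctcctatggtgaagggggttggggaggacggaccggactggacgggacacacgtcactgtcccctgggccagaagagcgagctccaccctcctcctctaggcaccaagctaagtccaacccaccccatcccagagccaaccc
The *Rab25* window held 2 E-boxes and 1 grainyhead motif, that of *Ap1m2* held 4 E-boxes and that of *Epcam* 2, while that of *Cldn3* held neither. Over both strands, CACCTG was in 5657 of 32851 mouse promoter windows of this length (17.2%) and in 11 of the 13 epithelial genes with a window. Those with a match included genes that were not lower, with 3 matches for *Spint2* (log2 fold change 0.05), 2 for *Ocln* (0.23) and 1 each for *Krt8* and *Krt18*. AACCNGTT was in 588 (1.79%) and in 1 of the 13. *Esrp1* and *St14* had no entry. These are matches of letters, and binding was not measured.

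No peroxide-handling enzyme passed the test. Of 22 such genes, 21 were tested, 0 were called (edgeR and DESeq2), and the median log2 fold change was -0.03, or -0.37 with the pool as a term. The smallest p was that of *Txn2*, mitochondrial thioredoxin, at 20.4 to 27.7 CPM in 4T1-CAT and 27.1 to 44.0 CPM in 4T1 (log2 fold change -0.57, 95% interval -0.95 to -0.18, p-adj = 0.981, edgeR). *Gpx7*, an endoplasmic reticulum peroxidase, was at -0.29 (-0.68 to 0.09), and at 0.57 (0.17 to 0.97) with alum alone. The difference between these 2 line differences was -0.83 (95% interval -1.39 to -0.28, p-adj = 0.529, edgeR). *Sod2*, the mitochondrial superoxide dismutase, was at -0.17 under CAT-ABP + alum and 0.47 under alum, where DESeq2 called it and edgeR did not. The 22 NRF2 targets had a median of 0.02, with *Gstm1*, a glutathione transferase, at -0.77 and *Fth1*, the ferritin heavy chain, at 0.34.

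HIF targets and glycolytic enzymes gave no call either. Outside glycolysis 21 HIF targets were tested, 0 were called, 16 had a positive log2 fold change and the median was 0.11. That median was 0.35 with the pool as a term and ran from 0.02 (without 4T1-CAT replicate 1) to 0.23 (without 4T1 replicate 2) with 1 tumor left out. *Vegfa*, the endothelial growth factor, had the smallest p of these (28.9 ± 11.8 against 19.1 ± 6.91 CPM, log2 fold change 0.50, 95% interval 0.02 to 0.98, p-adj = 0.981, edgeR). *Car9*, the hypoxia-induced carbonic anhydrase, was at 0.19 (-0.18 to 0.57). *Angptl4*, an inhibitor of lipoprotein lipase, was at 0.09 (-0.45 to 0.63) under CAT-ABP + alum and at 1.13 (0.44 to 1.83) under alum. Glycolytic enzymes had a median of 0.05 over 15 genes, with *Aldoa* at -0.02 (95% interval -0.29 to 0.25) and *Pgk1* at 0.05 (-0.25 to 0.34), so that for these genes differences beyond 0.34 on the log2 scale lay outside the intervals.

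**Figure D3:**
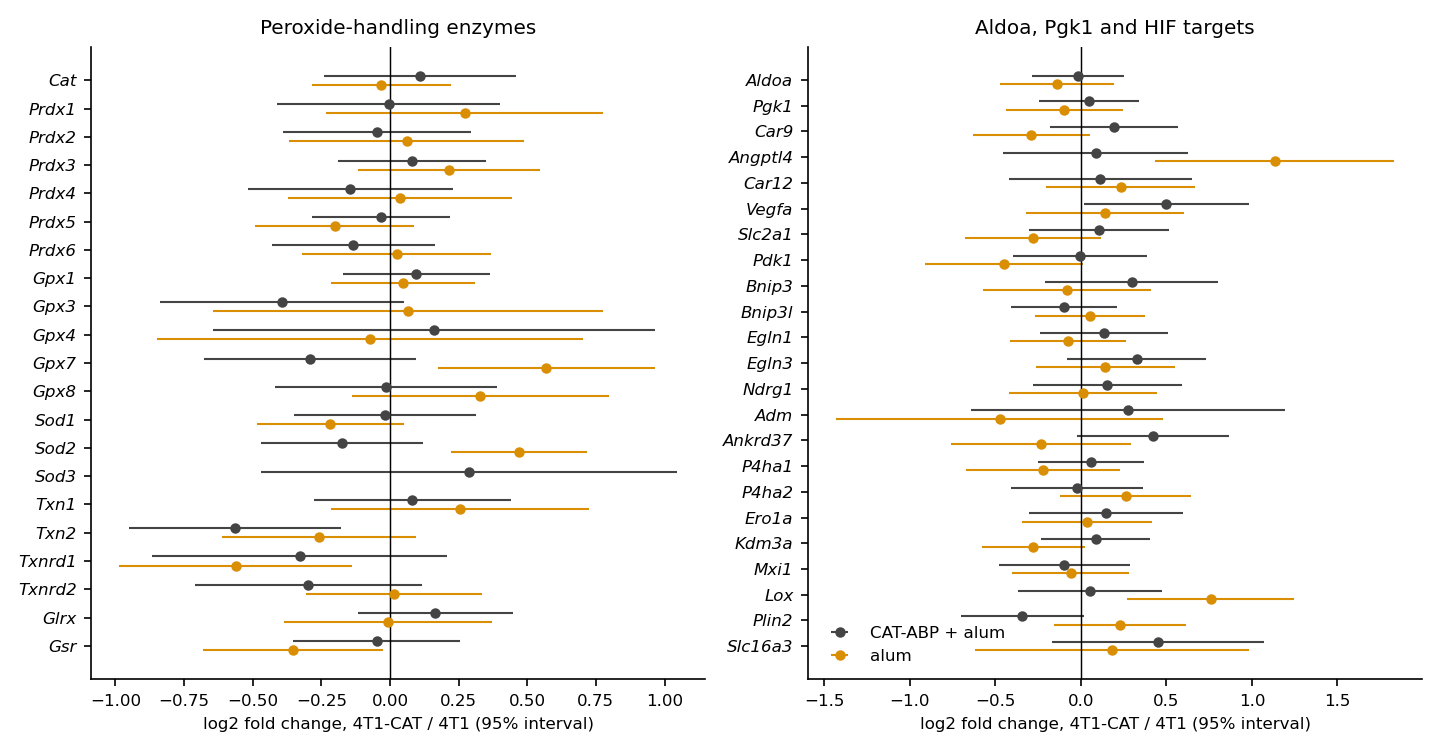
Log2 fold change of 4T1-CAT over 4T1 (horizontal axes) with 95% intervals for the peroxide-handling enzymes tested (left) and for *Aldoa*, *Pgk1* and HIF targets (right), under CAT-ABP + alum (dark) and alum (orange). *Txn2* at -0.57 is the lowest enzyme under CAT-ABP + alum, and *Gpx7*, *Sod2* and *Angptl4* have higher log2 fold changes with alum alone than with CAT-ABP + alum, differences that were not called.

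Mitochondrial genes gave no call. The 11 mitochondrially encoded genes tested had a median of -0.18, with 7 negative, and the range of medians with each tumor left out ran from -0.24 to 0.12. It turned positive without 4T1 replicate 4, the shallow tumor with the high mitochondrial share. Nuclear subunits of oxidative phosphorylation had a median of -0.03 over 36 genes, mitochondrial chaperones and proteases -0.04 over 10, and targets of the integrated stress response 0.05 over 20. *Shmt2* and *Mthfd2*, enzymes of mitochondrial folate metabolism in that list, had log2 fold changes of -0.34 and -0.35 (p-adj = 0.981 for both, edgeR). Genes of S phase and mitosis had a median of 0.03 over 30, and cytosolic ribosomal proteins -0.05 over 33.

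Interferon genes fell into a pair of lists with medians of opposite sign. The 28 type I interferon response genes tested had a median of -0.31, with 23 negative. Of them 6 were lower at an unadjusted p under 0.05, where 2.68% of all genes were. Those 6 included *Irf7*, the regulator of the response (-0.55), *Mx1*, an antiviral GTPase (-0.57), and *Oas2*, an oligoadenylate synthetase (-0.65), all with p-adj = 0.981 (edgeR). The 18 interferon-gamma GTPases and CXCR3 ligands had a median of 0.29, with 15 positive, *Irgm2* at 0.41 and *Cxcl9* at 0.66 (95% interval -0.17 to 1.48). None of either list was called (edgeR). With 1 tumor left out, the type I median ran from -0.40 (without 4T1-CAT replicate 2) to -0.15 (without 4T1-CAT replicate 5), and the interferon-gamma median from 0.09 (without 4T1-CAT replicate 1) to 0.44 (without 4T1-CAT replicate 5). Under alum the medians were 0.02 and 0.10. Against only the parental alum tumors in the pools of 4T1-CAT, they were -0.15 and 0.06. Between the pools of parental alum tumors, 3 against 2, the type I list had a median of 0.14. There 8 of its 28 genes were higher at an unadjusted p under 0.05 and 0 were lower, where 6.43% of all genes passed in either direction. With the pool as a term, the medians under CAT-ABP + alum were -0.42 for type I and 0.30 for interferon-gamma. Class I presentation genes had a median of 0.13 and class II genes -0.09.

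Lists of T cells, cytotoxic lymphocytes, dendritic cells, mast cells and basophils, neutrophils, chemokines and acute-phase proteins had medians nearer to 0 under CAT-ABP + alum than under alum, unlike the interferon lists. In whole tumors, fewer cells of a type and less RNA per cell cannot be told apart. T cell markers had a median of 0.20 over 12 genes under CAT-ABP + alum and of 1.06 over 10 genes under alum, where 9 were higher at an unadjusted p under 0.05 (7.51% of all genes were). Their summed level was 80.1 to 143 CPM in 4T1-CAT and 66.0 to 123 CPM in 4T1 under CAT-ABP + alum, and 71.4 to 228 and 58.4 to 75.2 CPM under alum. Markers of cytotoxic lymphocytes had medians of 0.11 and 1.04, dendritic cells -0.03 and 0.73, mast cells and basophils -0.03 and 0.88, and neutrophils -0.06 and 0.52. The chemokines had medians of 0.11 and 0.81. Acute-phase and innate defence proteins had medians of -0.01 and 0.81. Once the pool was a term, the medians under CAT-ABP + alum were 0.60 for T cells and -0.001 for cytotoxic lymphocytes. They were -0.30 for dendritic cells, -0.11 for mast cells and basophils, 0.04 for neutrophils, -0.17 for chemokines and -0.14 for acute-phase proteins. Parental tumors given alum lay in both sets of pools and those given CAT-ABP + alum in 1, so pool and treatment are not separate in this contrast. Against only the parental alum tumors in the pools of 4T1-CAT, the alum medians were 1.15 for T cells and 0.91 for cytotoxic lymphocytes. They were 0.73 for dendritic cells, 1.07 for mast cells and basophils, 0.63 for neutrophils, 0.80 for chemokines and 0.82 for acute-phase proteins, with 0 genes called (edgeR). With 1 tumor left out, the medians under CAT-ABP + alum ran from 0.09 to 0.36 for T cells (without 4T1-CAT replicate 1 and without 4T1 replicate 3), from -0.07 to 0.25 for cytotoxic lymphocytes (without 4T1 replicate 5 and without 4T1 replicate 3) and from -0.01 to 0.21 for chemokines (without 4T1-CAT replicate 1 and without 4T1-CAT replicate 4). With edgeR none of these genes was called under either treatment, and 0 of 13851 genes passed the test of whether the line difference differed between the treatments (edgeR; 0 also with DESeq2, and 1206 genes, 8.71%, had an unadjusted p under 0.05), so the contrast between these medians has no call behind it. Under alum, 1592 of 12717 genes (12.5%) had an unadjusted p under 0.05, and 0 passed the adjusted threshold with edgeR. DESeq2 called 125 of the 29019 genes it tested under alum, 63 higher and 62 lower. Among them were *Trbc2*, *Cd3g* and *Cd3d* of the T cell list, *Cxcr2* of the neutrophil list and *Cd209a* of the dendritic cell list. Genes outside the immune lists, such as *Mup14*, *Eef2* and *Epcam*, were called as well. Without 4T1-CAT alum replicate 1, edgeR called 29 genes under alum, *Cd3g* and *Gzmb* among them.

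Single immune genes showed both patterns. *Osm*, oncostatin M, a cytokine of the interleukin-6 family, was at 15.9, 6.77, 5.77, 7.92 and 24.5 CPM in 4T1-CAT and at 1.19 to 7.11 CPM (median 4.42) in 4T1. Of the 5 engineered tumors, 3 lay above all parental ones (log2 fold change 1.30, 95% interval 0.57 to 2.04, p-adj = 0.981, edgeR, exact permutation p = 0.0108), and under alum the log2 fold change was 1.41. *Gzmb*, granzyme B of cytotoxic cells, was at 38.8, 27.3, 22.9, 18.4 and 29.6 CPM against 13.1 to 26.0 CPM (median 14.7), with a log2 fold change of 0.64 (95% interval 0.19 to 1.09) and 1.08 under alum. *Slpi*, a secreted inhibitor of leukocyte proteases, was at 0.67 in both, and the pools of parental alum tumors differed in it by 0.91. In contrast, *Cd3g*, a chain of the T cell receptor complex, was at 0.57 (-0.03 to 1.17) under CAT-ABP + alum and at 1.75 (1.05 to 2.44) under alum. *Saa3*, an acute-phase protein, was at -0.48 and 1.01, and *Ly6c2*, a monocyte surface protein, at -0.22 and 1.14. The differences between treatments were -1.15 for *Cd3g*, -1.46 for *Saa3* and -1.33 for *Ly6c2*, each with p-adj = 0.529 (edgeR). 4T1-CAT replicate 5 given alum, a tumor of 2236452 counts, was the highest of all for *Osm*, *Gzmb* and *Cd3g*. With each alum tumor left out in turn the median of the T cell list under alum lay between 0.89 and 1.29, and that of the chemokines between 0.48 (without 4T1-CAT alum replicate 5) and 0.95.

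**Figure D4:**
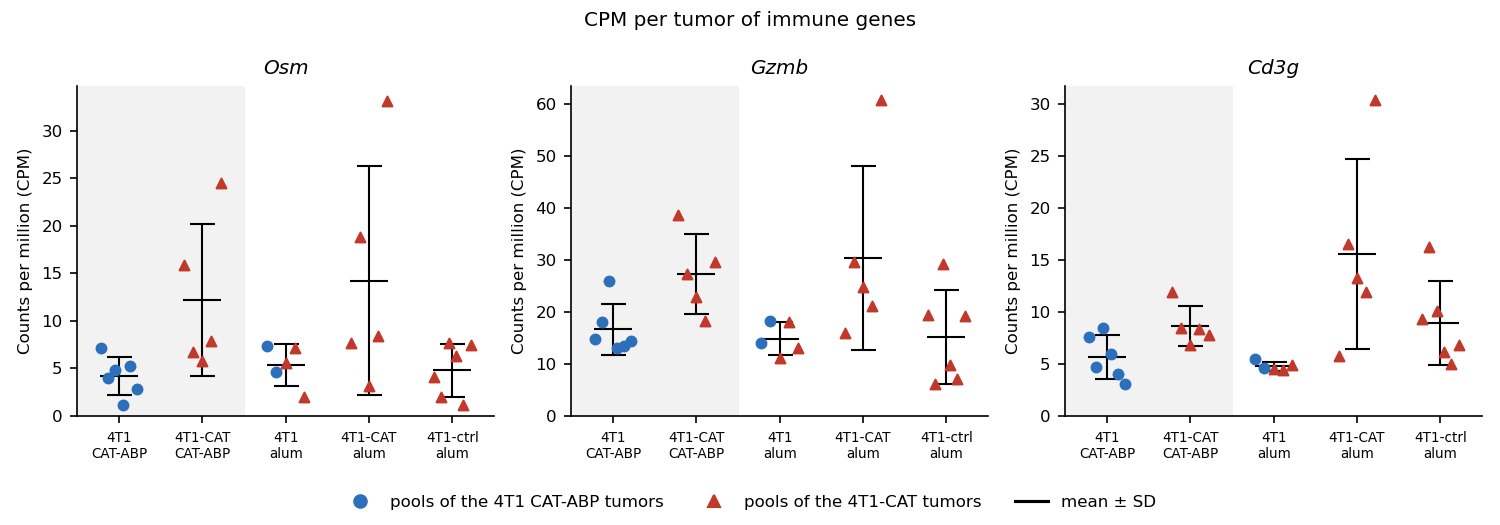
Levels of *Osm*, *Gzmb* and *Cd3g* in CPM (vertical axes, from 0), 1 point per tumor, with the mean and SD as bars and the pools as point shapes; the shaded groups are the main comparison. 4T1-CAT tumors reach 24.5 CPM of *Osm* with CAT-ABP + alum and 33.1 CPM with alum, and the groups overlap in each gene under CAT-ABP + alum.

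Markers of host tissue around the tumor cells were present in both groups, at summed levels that overlapped. Adipocyte markers had a median of -0.27 over 7 genes under CAT-ABP + alum (summed level 102 to 334 CPM in 4T1-CAT and 126 to 219 CPM in 4T1) and 1.12 under alum (165 to 470 and 73.8 to 184 CPM). Skeletal muscle markers had -0.21 and 0.53, and their median between the pools of parental alum tumors was 0.82. Fibroblast markers had -0.03 and 0.35. Under CAT-ABP + alum, 1 of the 20 fibroblast genes tested was without overlap and lower in 4T1-CAT, as were 0.295% of all genes. In that list *Pdgfrb*, the platelet-derived growth factor receptor of mesenchymal cells, was at 9.32 to 13.1 CPM against 13.1 to 26.5 CPM (log2 fold change -0.69, 95% interval -1.06 to -0.32, p-adj = 0.981, edgeR). Macrophage markers had a median of 0.14, endothelial markers 0.05, pericytes and smooth muscle 0.08, monocytes 0.01 and erythroid cells 0.03. Epidermal markers summed to 34.8 to 410 CPM in 4T1-CAT and 62.1 to 126 CPM in 4T1, and *Krtdap*, a keratinocyte protein, ranged from 0.23 to 153 CPM in 4T1-CAT and from 0 to 0.59 CPM in 4T1. The part of such tissue in the results above was not tested.

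Over all 38 lists, 561 genes were tested. With the pool as a term, the medians under CAT-ABP + alum ran from -0.93 (skeletal muscle) to 0.60 (T cells), with 0 genes called. The median half-width of a gene's interval was then 0.79, against 0.40 without the term. Without the term, 33 medians lay within 0.2 of 0, and 1 list held a call, that of *Rab25*. The nearness of the medians to 0 thus depended on the model. Lists not yet mentioned were matrix proteases and their inhibitors (0.07), cholesterol synthesis (0.14), MAPK feedback (0.02), clock genes of the Dbp phase (-0.10) and of the Bmal1 phase (0.05), long nuclear and cytoskeletal genes (-0.06) and B and plasma cells (-0.05).

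**Figure D5:**
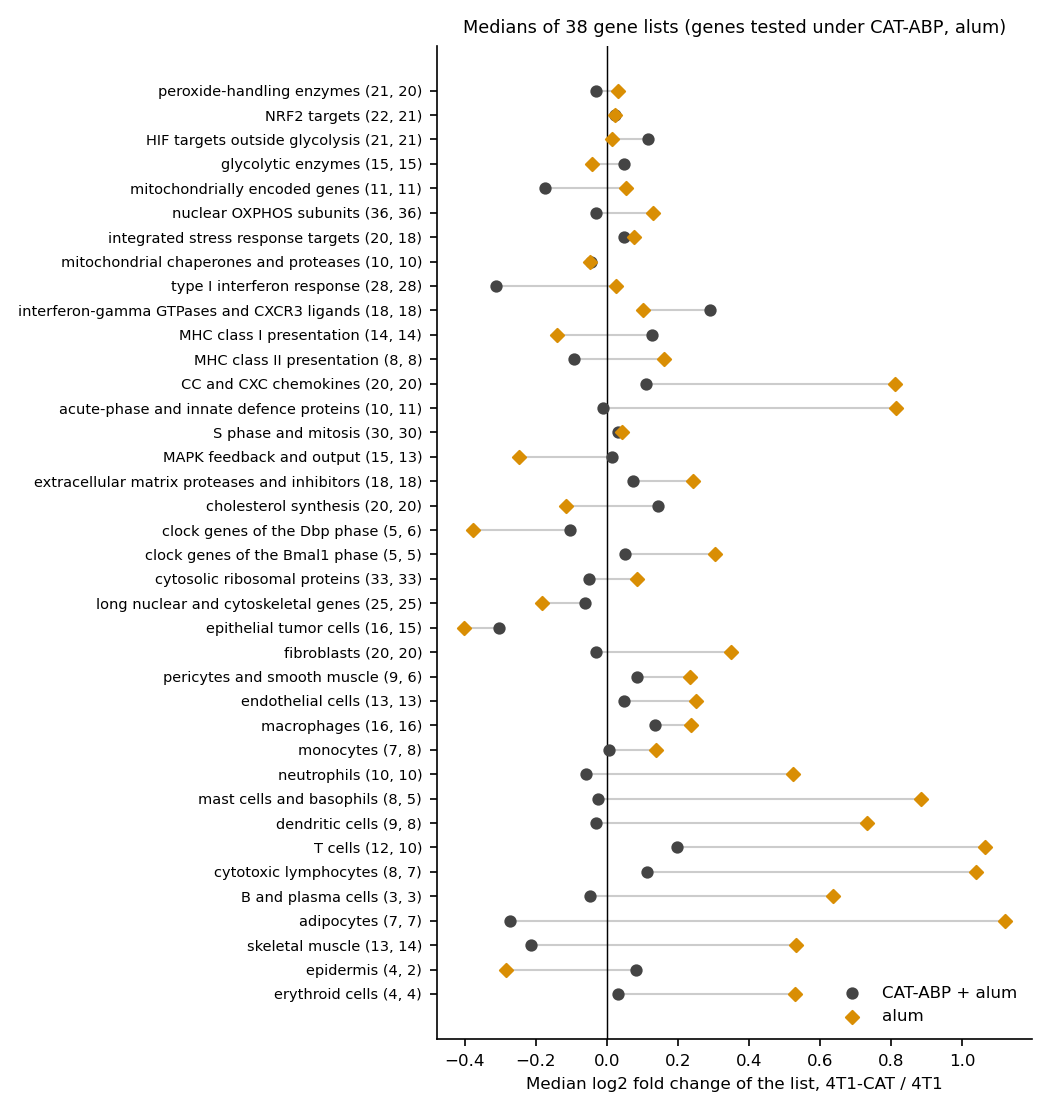
Median log2 fold change of 4T1-CAT over 4T1 (horizontal axis) for 38 gene lists, under CAT-ABP + alum (circles) and alum (diamonds), with the numbers of genes tested in brackets. The medians under CAT-ABP + alum run from -0.31 to 0.29, and those of T cells, cytotoxic lymphocytes and adipocytes exceed 1 under alum.

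When the line difference was averaged over both treatments in a model of 4 groups, a fit added after values were seen, 16 of 13851 genes were called, 0.116% of those tested, with 14 lower (0.101%) and 2 higher (0.0144%). The lower genes again held epithelial ones: *Rab25* (-1.48), *Cldn3* (-1.09), *Esrp1* (-0.74), *Epcam* (-0.59), *St14* (-0.58) and *Dsc2*, a desmosomal cadherin (-1.68). *Rhox5* was at -3.01. The other lower genes were *Apol9b*, *Gdpd5*, *Palmd*, *Ica1*, *Ephb6*, *Echdc3* and the noncoding *Gm28502*, between -1.13 and -0.61. Among the higher genes was *Cd3g* (1.15). Within the parental alum tumors the pools differed by -1.92 in *Rhox5*, -0.91 in *Palmd*, -0.60 in *Ephb6*, -0.45 in *Epcam* and -0.41 in *Gdpd5*, and by 0.11 or less in either direction in *Rab25*, *Cldn3*, *Esrp1*, *Ica1*, *Echdc3*, *Cd3g* and *Gm28502*. With the pool as a term 0 genes were called (edgeR), with *Rab25* at -1.44 and *Rhox5* at -1.55. With any 1 of the 21 tumors left out, between 3 and 22 genes were called, and *Rab25*, *Cldn3* and *Rhox5* were among them in 21 of 21 fits, *Epcam* in 7 and *Cd3g* in 6.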

How the data were processed

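Whole tumors were sequenced by HT3DGE, a method that counts transcripts near their 3′ end, on a NextSeq system, with 2 technical libraries per tumor. The authors assigned reads to genes with Smart-seq2 software (Terra) and deposited an estimated count for each gene and library, without normalization. Fractional values made up 39.7% of those above 0. The aligner and genome build are not given in the sources used here. Some technical libraries were excluded by the authors for low depth without being named, and all libraries were kept here.

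For each tumor, which was the replicate, the estimated counts of its 2 libraries were added and rounded. After filterByExpr and TMM normalization, edgeR's quasi-likelihood test (robust) was run with only the groups compared in the fit, and p was adjusted by Benjamini-Hochberg at 0.05. The log2 fold changes are 4T1-CAT over 4T1. CPM values are counts scaled to the library total. For single genes a two-sided exact permutation test of log2 CPM (prior count 2) was used, whose smallest p is 0.00216 for 5 against 6 and 0.00794 for 5 against 5. Errors describe the spread among tumors, and depth limits genes of few counts. The labels number the tumors as biological replicates without saying how they were housed or processed. A p-value here sets the difference between groups, whatever its source, against the spread among these tumors. Gene symbols, coordinates and overlaps came from GENCODE M21 (GRCm38), which gave 3505 symbols that the table lacked, and promoter windows from RefSeq (GRCm38.p6). The edgeR scripts were tested on simulated counts with 200 changed genes. For the main comparison 68% of 2-fold and 99.0% of 4-fold changes were called, with 11 false calls among 13016 genes. For the alum comparison in shared pools 51.5% of 2-fold changes were called. Smaller or rarer changes can thus be missed. Tools were edgeR 4.0.16, DESeq2 1.42.0, limma 3.58.1 and R 4.3.3.

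The groups, tests and 38 gene lists were chosen with earlier results of these data known, so a list is described by its counts and median and was not tested. Named genes were *Cat*, *Aldoa*, *Pgk1*, *Car9*, *Angptl4*, *Gpx7*, genes past the threshold in the main comparison, and up to 5 genes per list with the smallest p in it. Other genes (*Osm*, *Sod2*, *Ap1m2*, *Epcam*, *Cxcl9*, *Krtdap* and the calls over both treatments among them) were named after their values were seen. The alternatives were DESeq2, RLE size factors, no filter or a mean of 20 counts, all 7 groups in 1 model, a block for the replicate number, either technical library alone, libraries under 0.25 of the median total left out, limma voom with quality weights, a gene length correction, the sequencing pool as a term, a prior count of 0.5 and each tumor left out. The fit over both treatments and the list medians with each tumor left out were added after values were seen. One gene's result is not reported here.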

Additional observations from a re-analysis of the deposited data

Results flagged for a closer look

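Of 55 sets of values from 1 group checked for a tumor far from the rest, 4 held one, and chance alone flags about 1 set in 20. *Rhox5* was at 10.7 CPM in 4T1 CAT-ABP + alum replicate 4, where the other 5 tumors had 3.74 to 6.09 CPM. That tumor is the shallowest of its group, with 9 counts of *Rhox5*. The same tumor had the highest mitochondrially encoded share, 6.04% against 3.80% to 4.39%. *Rhox5* was also high in 4T1-control alum replicate 2, at 6.08 CPM from 3 counts, against 0 to 0.96 CPM in the other 5. 4T1-CAT CAT-ABP + alum replicate 4 had a total count of 8709773, against 4505755 to 5669599 in the other 4.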

How the results depend on the processing

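Under CAT-ABP + alum the 2 calls became 5 without a filter, 5 with limma voom, 1 with a mean of 20 counts, 1 with all 7 groups in the model, and 0 with either technical library alone or with the pool as a term. DESeq2, RLE, the length correction and low-depth libraries left out gave 2. With 1 tumor left out the count was 0 to 2, and it was 0 without 4T1-CAT CAT-ABP + alum replicate 1 or 4. Over the 23 alternatives *Rab25* was lower in 23 (log2 fold change -1.64 to -0.89) and called in 16, and *Rhox5*, tested in 21, was lower in 21 (-3.09 to -0.92) and called in 16. Adjusted p-values ran from 6.92e-06 to 1.00 and from 6.31e-06 to 0.898.

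Replicate numbers did not pair the tumors: deviations of same-numbered tumors from their group means correlated with r of -0.24 to 0.32, and 1 of 5 tumors correlated best with its own number. With the replicate number as a block there were 0 calls under CAT-ABP + alum, 29 under alum, 2 under alum in shared pools and 6 over both treatments, and 0 for the difference between treatments.

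Under alum the 0 calls became 125 with DESeq2, 224 without a filter, 2 with limma voom and 0 to 29 with 1 tumor left out, with 29 without 4T1-CAT alum replicate 1 and 4 without 4T1 alum replicate 5. In shared pools they became 2 with DESeq2, 114 without a filter and 0 to 5 with 1 tumor left out, with 1 without 4T1 alum replicate 3 and 5 without replicate 5. The pool difference had 1 call (*2810425M01Rik*), 5 with DESeq2 and 0 with RLE. The difference between treatments had 0 calls in each alternative run. Over both treatments the 16 calls became 41 with DESeq2, 75 with limma voom, 0 with the pool as a term and 3 to 22 with 1 tumor left out. List medians moved by more than the median standard error of their member genes in 29 of 950 cases. That measure is the error of a single gene and is wide for a median of many. The cause of these changes was not tested.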
